A study of Mus musculus with 6 samples.

Results

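Neat1, Malat1, Meg3, Miat and Snhg11 are long RNAs that stay largely in the nucleus, and they were followed across the cell classes of the mouse hippocampus and between antisense-treated and saline-treated mice. They are 5 of the 28324 genes in the deposited table, and all 5 were present. The members were chosen by name, and Neat1 was selected on these same counts, because it was higher in the oligodendrocytes of treated mice. The oligodendrocyte contrast is therefore given as a description with no test for any of the 5, and for these 5 tests were run only in the other cells. One of the names needs a qualification, since Snhg11 is a small nucleolar RNA host gene that GENCODE M21 lists as protein_coding, whereas the other 4 are listed as lincRNA.

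The counts come from Drop-Seq, a droplet method that captures RNA by its adenine-rich stretches and counts unique molecular identifiers (UMIs) from the 3′ ends of the captured RNAs. Whole-cell suspensions were made from the hippocampus of 6 APP/PS1 mice aged 10 weeks. All 6 mice, controls included, carry the APPswe and PSEN1dE9 transgenes on a C57BL/6 background (strain B6.Cg-Tg(APPswe,PSEN1dE9)85Dbo/Mmjax), which are expressed from the mouse prion protein promoter and model amyloid deposition. A group of 3 mice received PBS and the other group of 3 received an antisense oligonucleotide (ASO); the series title names a reduction of IDOL, the ubiquitin ligase encoded by Mylip that marks lipoprotein receptors for degradation. With saline as the only control, what any oligonucleotide would do cannot be told apart from what this one did. No wild-type mouse was analysed here.

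Neat1 is the scaffold of paraspeckles, nuclear bodies that hold RNA-binding proteins such as Nono and Sfpq. A short isoform ends at a polyadenylation signal, and a long isoform, which is the one that builds the body, runs on to a triple-helix end without a poly(A) tail. Malat1 lies beside Neat1, is among the most abundant nuclear RNAs and localises to nuclear speckles, where splicing factors are stored. Meg3 is transcribed from the maternal allele of the imprinted Dlk1-Dio3 locus and is abundant in neurons. Miat, also called Gomafu, forms nuclear foci in neurons and binds splicing factors.

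The 3′ ends of these RNAs are shown because they are the parts a 3′ count reads. They also differ in whether they carry the polyadenylation signal AATAAA. Coordinates are of GRCm38, and genes, transcripts and sequences are those of GENCODE M21. Neat1 lies on the minus strand at chr19:5824708-5845478 (ENSMUSG00000092274.3) and Malat1 on the same strand at chr19:5795690-5802672 (ENSMUSG00000092341.3), 22036 bases away. Meg3 lies on the plus strand at chr12:109541001-109571726 (ENSMUSG00000021268.17), Miat on the minus strand at chr5:112213228-112229395 (ENSMUSG00000097767.8) and Snhg11 on the plus strand at chr2:158375638-158386145 (ENSMUSG00000044349.15). The last 100 bases of 5 transcripts, all within the last exon, are given 5′ to 3′ (that of Snhg11-201 is not shown), with the hexamer AATAAA in capitals where it falls in the last 50 bases.
Neat1-202, the short isoform of 3004 bases, minus strand of chr19:5842307-5842406: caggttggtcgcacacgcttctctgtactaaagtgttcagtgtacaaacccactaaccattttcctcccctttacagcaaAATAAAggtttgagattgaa
Neat1-201, the long isoform of 20771 bases, minus strand of chr19:5824708-5824807: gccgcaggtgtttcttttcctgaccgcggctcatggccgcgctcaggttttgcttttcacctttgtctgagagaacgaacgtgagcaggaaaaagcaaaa
Malat1-201, 6983 bases, minus strand of chr19:5795690-5795789: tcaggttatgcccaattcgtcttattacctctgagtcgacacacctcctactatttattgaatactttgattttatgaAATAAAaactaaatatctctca
Meg3-209, 14548 bases, plus strand of chr12:109571627-109571726: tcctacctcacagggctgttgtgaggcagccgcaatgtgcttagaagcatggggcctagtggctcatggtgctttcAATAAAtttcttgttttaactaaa
Miat-205, 9163 bases, minus strand of chr5:112213228-112213327: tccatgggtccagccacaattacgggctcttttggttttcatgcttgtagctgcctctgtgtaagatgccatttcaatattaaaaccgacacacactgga
The hexamer AATAAA, searched on the transcript strand, was found in the last 50 bases of Neat1-202, Malat1-201, Meg3-209 and Snhg11-201, and its letters were not found there in Neat1-201 or Miat-205. For comparison, 23.5% of 30258 long noncoding transcripts in the annotation hold it. Other forms of the polyadenylation signal were not searched for, so an end without AATAAA may still carry a signal. Malat1 also has a second kind of end. The stretch below is shown because mature Malat1 is known to be cut beside a genomically encoded run of adenines, drawn in capitals, which an oligo-dT primer can bind in the absence of a poly(A) tail.
Malat1-201, positions 6634 to 6725, minus strand of chr19:5795948-5796039: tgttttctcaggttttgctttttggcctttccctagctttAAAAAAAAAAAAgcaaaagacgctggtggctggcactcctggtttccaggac
The run spans positions 6674 to 6685, ending 298 bases before the annotated end. Of the long noncoding transcripts 3.06% hold a run of 12 or more A at any position. That share was not matched for length, and a longer transcript has more room for such a run. Meg3-209 holds 3 such runs, the longest of 16 bases, and the other transcripts listed hold none. The deposited counts are summed per gene, so they do not tell which end was captured or which Neat1 isoform was counted.

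The table held 12823 cells in 17 classes named by the authors, with 569 to 1999 UMIs in a cell. After removal of 220 predicted doublets, 12603 cells and 2005768 to 3134558 UMIs per mouse remained. There were 10 classes with at least 20 cells in every mouse. Fixed marker lists were highest in the class of the same name for glia, vascular cells, ependyma, choroid plexus, dentate cells, interneurons and Cajal-Retzius cells; the list for subiculum and entorhinal neurons was not highest in those classes. Levels are given as UMIs of an RNA per 1000000 UMIs of the class in that mouse (CPM), which cannot be compared between RNAs of different length and end. Mice also differed in the mitochondrial RNAs, with a ratio of mt-Rnr2 to mt-Cytb from 4.49 to 16.8; ranking by that ratio gives 3 sets, each with 1 PBS and 1 ASO mouse, and ASO mouse 2 had the lowest ratio. The labels do not say that these sets are batches.

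Neat1 was an RNA of oligodendrocytes, the myelin-forming cells of the brain, and of vascular cells and astrocytes, and it was low in most neurons. Oligodendrocytes held 7199 of its 9606 UMIs, at 1310 to 2910 CPM over the 6 mice with a median of 1966 CPM. Among the 10 classes with at least 20 cells in every mouse, mural cells, the contractile cells of vessel walls, followed with a median of 540 CPM (range 480 to 583), and each of these ranges lay clear of the class below it. Of the smaller classes choroid plexus, Fibroblast-Like and ependymal cells stood above mural cells, with medians of 902, 655 and 597 CPM, and their ranges over mice overlapped with that of mural cells.
Endothelial cells had a median of 385 CPM of Neat1 and astrocytes 301 CPM, and their ranges over mice overlapped. Microglia and macrophages had a median of 122 CPM, below the lowest astrocyte value of 271 CPM. Cajal-Retzius neurons, at 113 CPM, and polydendrocytes, the oligodendrocyte precursors, at 21.8 to 166 CPM, overlapped with microglia in their ranges. Precursors were thus far below mature oligodendrocytes.
In CA1, dentate and subiculum neurons the median was 20.9, 13.9 and 13.6 CPM, and each of the 3 ranges began at 0 CPM. Only 21 of 1122 dentate neurons (1.87%) had a Neat1 UMI, against 78.7% of 2999 oligodendrocytes, at median depths of 1195 and 1037 UMIs. Thinned to 500 UMIs per cell the shares were 0.834% and 58.6%. In CA2CA3 neurons no UMI was counted in 47 cells, which allows up to 48.0 CPM at a floor of 3 UMIs.

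RNA of 5 oligodendrocyte markers (Mbp, Mog, Mag, Mobp and Cldn11) was found in every class, so the low Neat1 counts were read against them. The makeup of that RNA differed between classes. Mbp, the myelin basic protein gene, gave 35.6% of the marker UMIs in oligodendrocytes but 77.3% in dentate neurons and 80.1% in microglia, so Neat1 was set against Mbp and against the other 4 markers apart. Oligodendrocytes had 339 Neat1 UMIs per 1000 Mbp UMIs and 188 per 1000 UMIs of the other 4 markers. Dentate neurons had 42.9 and 146, CA1 neurons 44.2 and 128, subiculum neurons 54.7 and 127, and interneurons 39.2 and 87.0. The Neat1 counts of these neurons lay below the oligodendrocyte ratio on both measures, and how much of them was RNA from other cells was not tested. Polydendrocytes had 88.3 and 192, close to that ratio on the second measure.
Astrocytes had 694 and 1748 Neat1 UMIs on these measures, endothelial cells 775 and 2675, and mural cells 1052 and 3141, above the oligodendrocyte ratio on both. For microglia (192 and 777) and for Cajal-Retzius neurons (168 and 442, from 34 UMIs) Neat1 was below that ratio against Mbp and above it against the other 4. The Cajal-Retzius class also held RNA of Ttr, the transthyretin gene that choroid plexus expresses, at a pooled 33806 CPM (12077 to 98402 CPM by mouse), against 1718 to 3543 CPM in the other classes outside choroid plexus. ASO mouse 3 was the highest there for Ttr and for Neat1, at 257 CPM from 9 UMIs, and the part of choroid plexus RNA in this Neat1 value was not tested. Among the smaller classes, choroid plexus held 66 Neat1 UMIs in 39 cells, a pooled level of 1125 CPM (exact Poisson 95% interval 870 to 1432, counting error only). Ependymal cells held 150 UMIs in 188 cells, at 639 CPM (541 to 750), and Fibroblast-Like cells 81 UMIs in 108 cells, at 642 CPM (510 to 798).

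**Figure D1:**
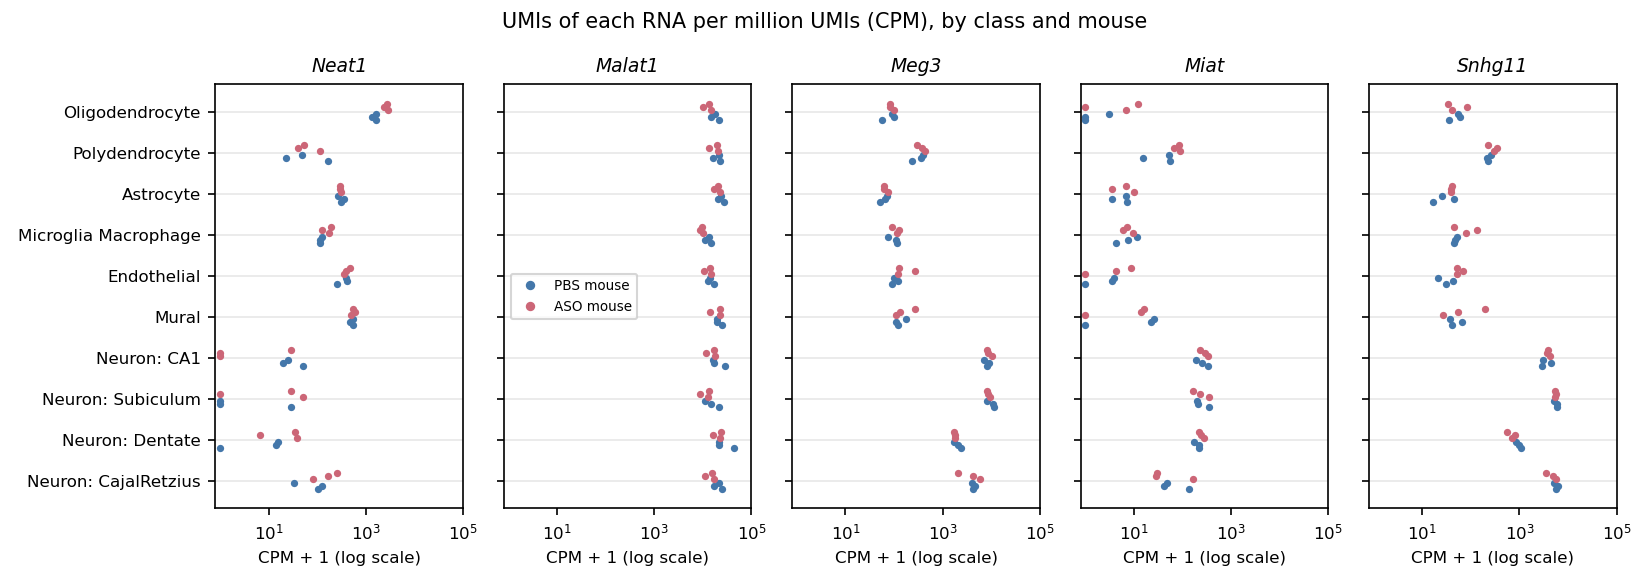
Level of each RNA (CPM plus 1, log axis) in the 10 classes with at least 20 cells in every mouse, with 1 point per mouse (blue PBS, red ASO). Neat1 is highest in oligodendrocytes (1310 to 2910 CPM), Malat1 is high in every class, and Meg3, Miat and Snhg11 are highest in neurons.

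The genes whose pattern over the 10 classes was most like that of Neat1 were Tmbim1 (Pearson r = 0.945 of log2(CPM + 1) over 10 class means), Ppfibp2 (r = 0.938) and Clic4 (r = 0.934), out of 4777 genes with a mean of at least 50 CPM. Clic4 encodes a chloride intracellular channel protein. The points share libraries and the classes were built from these genes, so the correlations describe and were not tested.

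In oligodendrocytes Neat1 was higher in each ASO mouse than in each PBS mouse. The PBS mice had 1607, 1310 and 1621 CPM, from 845, 632 and 776 UMIs. The ASO mice had 2910, 2310 and 2711 CPM, from 2429, 1306 and 1211 UMIs. The lowest ASO mouse stood well above the highest PBS mouse, with means of 1512 ± 176 CPM (SD, n = 3) in PBS and 2644 ± 306 CPM (SD, n = 3) in ASO mice. The fitted log2 fold change was 0.77 (SE 0.16, edgeR), or 1.70-fold. As this contrast chose the gene, no p is given. In the same fit 16 of 7141 genes passed an adjusted p of 0.05, which is 0.224%, and 11.5% of genes had groups that did not overlap; nothing is read from either for Neat1.
The difference was spread over many cells. Cells without a Neat1 UMI made up 25.9%, 36.4% and 28.9% of oligodendrocytes under PBS and 12.6%, 16.8% and 13.4% under ASO. Cells with 5 or more made up 9.45%, 4.88% and 8.16% under PBS and 26.0%, 16.0% and 23.5% under ASO. The whole distribution stood further to the right in ASO mice. The richest single cell of each mouse held 11, 17 and 9 UMIs under PBS and 20, 18 and 11 UMIs under ASO.
With every cell thinned to 500 UMIs, the share of oligodendrocytes with a Neat1 UMI was 50.2%, 42.8% and 50.5% under PBS and 70.0%, 63.0% and 67.7% under ASO. These shares come from the same counts that chose the gene, so they describe the difference at equal depth and add no support. Against Malat1 in the same cells, the PBS mice had 7.38, 8.76 and 9.10 Neat1 UMIs per 100 Malat1 UMIs and the ASO mice 19.7, 23.2 and 20.01. Malat1 was itself lower in ASO oligodendrocytes (below), so this ratio moved with both RNAs.

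**Figure D2:**
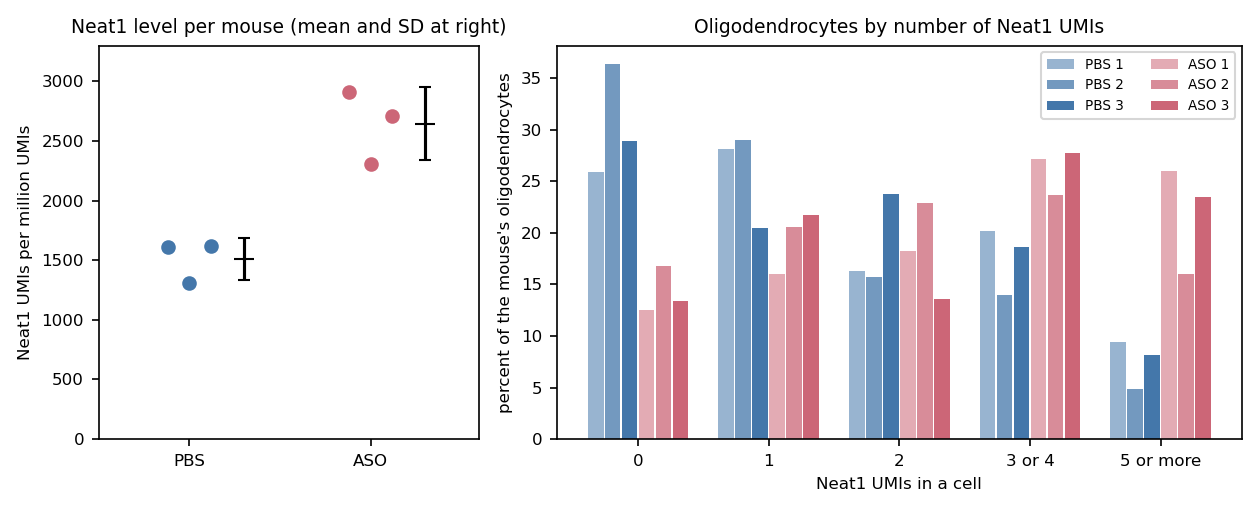
Left, Neat1 CPM in the oligodendrocytes of each mouse with the mean and SD of 3 mice; right, percent of each mouse's oligodendrocytes (vertical axis) by number of Neat1 UMIs (horizontal axis). The ASO mice lie at 2310 CPM or above and the PBS mice at 1621 CPM or below, and ASO mice have fewer cells at 0 and more at 5 or more.

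Several measures were read beside the oligodendrocyte values. Within each of the 3 sets of mice the log2 ratio of ASO to PBS was 0.78, 0.84 and 0.69. The sets do not hold the mt-Rnr2 to mt-Cytb ratio equal, as the ASO mouse had the lower ratio in each. It was 4.49 against 7.16, 10.9 against 12.9 and 15.9 against 16.8. The part of this ratio in the Neat1 difference was not tested. Removing every oligodendrocyte with a UMI of a microglia, astrocyte, endothelial or neuron marker left 1392 of 2999 cells and a log2 fold change of 0.83. The 5 oligodendrocyte markers summed to 18519 to 20418 CPM under PBS and 15086 to 19730 CPM under ASO, and 10 early-response genes, which can be induced during dissociation, to 2761 to 3053 CPM under PBS and 1943 to 2693 CPM under ASO. Haemoglobin transcripts stood at 1226 CPM in ASO mouse 2 and at 106 to 136 CPM in the other mice. The part of the marker and early-response differences in the Neat1 difference was not tested.

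Outside oligodendrocytes no change of Neat1 passed the test. All cells other than oligodendrocytes had 204, 219 and 181 CPM under PBS and 234, 234 and 246 CPM under ASO. The groups did not overlap, as held for 8.72% of the 13547 genes tested, and the log2 fold change was 0.25 (SE 0.13, adjusted p = 0.999948 by edgeR). These cells held oligodendrocyte RNA too, with the 5 markers at 615 to 722 CPM under PBS and 664 to 873 CPM under ASO. Its part in the Neat1 values was not tested. In a sum over classes, fewer cells of a class and less RNA per cell cannot be told apart.
Microglia and macrophages had 111, 112 and 124 CPM of Neat1 under PBS and 171, 121 and 194 CPM under ASO. ASO mouse 2 lay within the PBS range and the others above it. The log2 fold change was 0.53 (SE 0.22, adjusted p = 0.821 by edgeR). The oligodendrocyte markers in these cells summed to 684 to 987 CPM under PBS and 948 to 1053 CPM under ASO, ranges that overlap, and their part in the Neat1 values was not tested. This joint class, called microglia for short elsewhere, also varied in macrophage RNA. Its 6 macrophage markers summed to 226, 619 and 132 CPM under PBS and 295, 572 and 403 CPM under ASO. The part of this makeup in the Neat1, Malat1 and Snhg11 values of the class was not tested.
The log2 fold change was 0.17 (SE 0.19) in endothelial cells, -0.03 (SE 0.17) in astrocytes and 0.04 (SE 0.24) in mural cells, with overlapping groups in each. None passed the test (edgeR adjusted p of 0.998, 0.999 and 0.983). The signs in these 3 classes were not stable, since leaving out PBS mouse 1 turned the endothelial value to -0.0050, leaving out PBS mouse 2 turned the astrocyte value to 0.084, and thinning turned the mural value to -0.085. The mural value was also below 0 without PBS mouse 2 (-0.015) and without ASO mouse 2 (-0.0030). Whether the oligodendrocyte difference exceeds those in other classes was not tested.

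Over all 5 RNAs and the 9 classes other than oligodendrocytes, 33 tests could be made, because an RNA with too few counts in a class drops out. None passed an adjusted p of 0.05 with edgeR, and none with DESeq2 or limma voom, while 6 had an unadjusted p under 0.05 (Malat1, Neat1 and Snhg11 in microglia, Meg3 and Snhg11 in endothelial cells, Snhg11 in dentate neurons). The members filtered out were left untested and are not taken as unchanged. Few genes of any kind passed in these classes: 0.0% in astrocytes, endothelial cells, dentate neurons, CA1 neurons, Cajal-Retzius neurons and the sum of all other cells, 0.0366% in microglia, 0.0447% in polydendrocytes, 0.188% in subiculum neurons and 0.257% in mural cells. At an unadjusted p under 0.05 there were 307 of 5467 genes in microglia, 253 of 6219 in endothelial cells, 168 of 5064 in dentate neurons, 218 of 6282 in astrocytes, 45 of 943 in CA1 neurons, 46 of 1037 in Cajal-Retzius neurons and 524 of 13547 in the sum of other cells. In the remaining classes there were 134 of 1558 in mural cells, 62 of 1062 in subiculum neurons and 182 of 4472 in polydendrocytes.

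**Figure D3:**
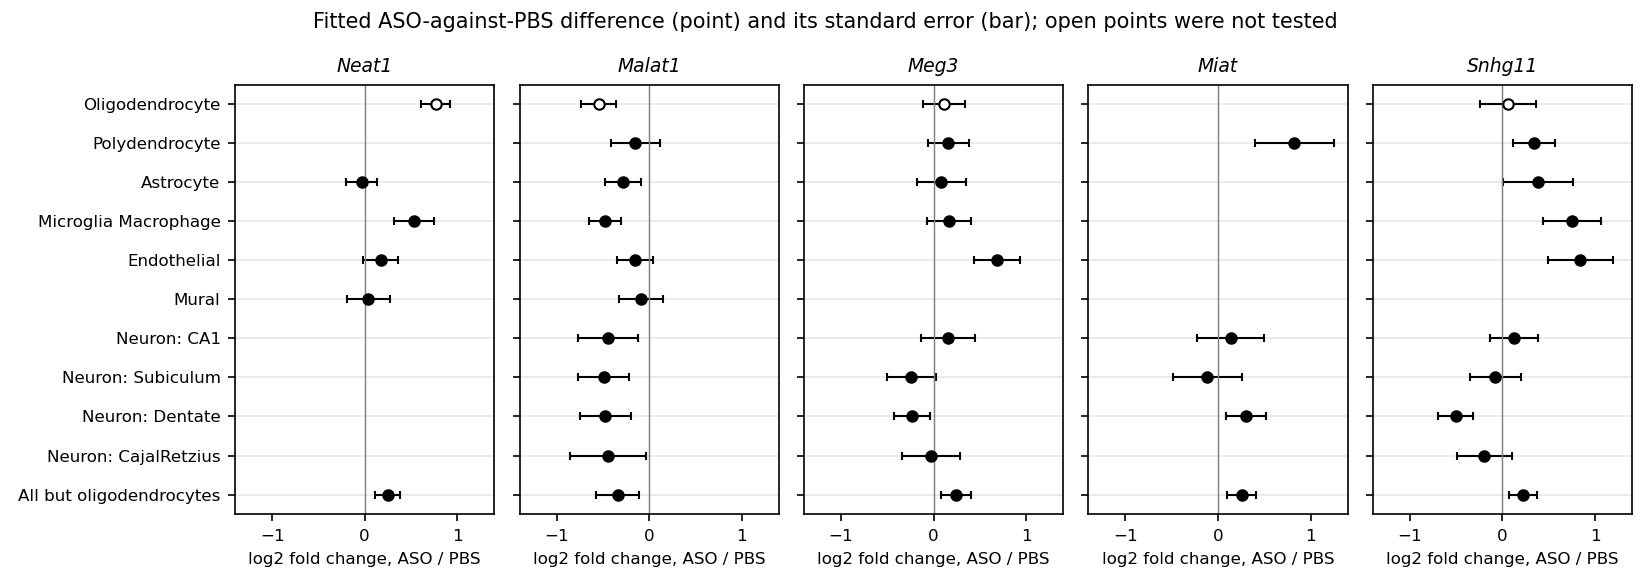
Log2 fold change of ASO over PBS from edgeR (horizontal axis) with its standard error, for each RNA in each class (rows) where it passed the filter on low counts; open points are oligodendrocytes, which were not tested. Neat1 is at 0.77 in oligodendrocytes, and Malat1 lies below 0 in all 9 tested classes. The row for all but oligodendrocytes is a sum that holds the cells of the other classes, and Malat1 is at -0.34 there.

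Malat1 was high in every class, and it differed between classes and between mice. Over all cells it made up 1.68% of UMIs. Class medians ran from 22043 CPM in dentate neurons through 21647 CPM in astrocytes, 21220 CPM in mural cells and 20038 CPM in polydendrocytes to 14845 CPM in oligodendrocytes and 10665 CPM in microglia. Every neighbouring pair in that order overlapped in range over mice, but the microglia range of 8686 to 15009 CPM lay below the astrocyte range of 16738 to 27833 CPM. A UMI of Malat1 was found in at least 92.6% of the cells of each of the 10 classes, lowest in CA1 neurons. The genes most like it across the 10 classes were Ndufs1 (r = 0.890), a subunit of mitochondrial complex I, Hmgn3 (r = 0.877), a nucleosome-binding protein, and Wrn (r = 0.872), a DNA helicase.
The same mice were at the ends in each class. PBS mouse 1 had the highest Malat1 and ASO mouse 2 the lowest in 10 of 10 classes. Over all cells the PBS mice had 23458, 15904 and 18188 CPM and the ASO mice 16357, 11965 and 15740 CPM. ASO mouse 2 was also the mouse with the lowest mt-Rnr2 to mt-Cytb ratio, 4.49, while PBS mouse 1, at 12.9, was in the middle of that order. The part of this ratio in the Malat1 level was not tested.

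**Figure D4:**
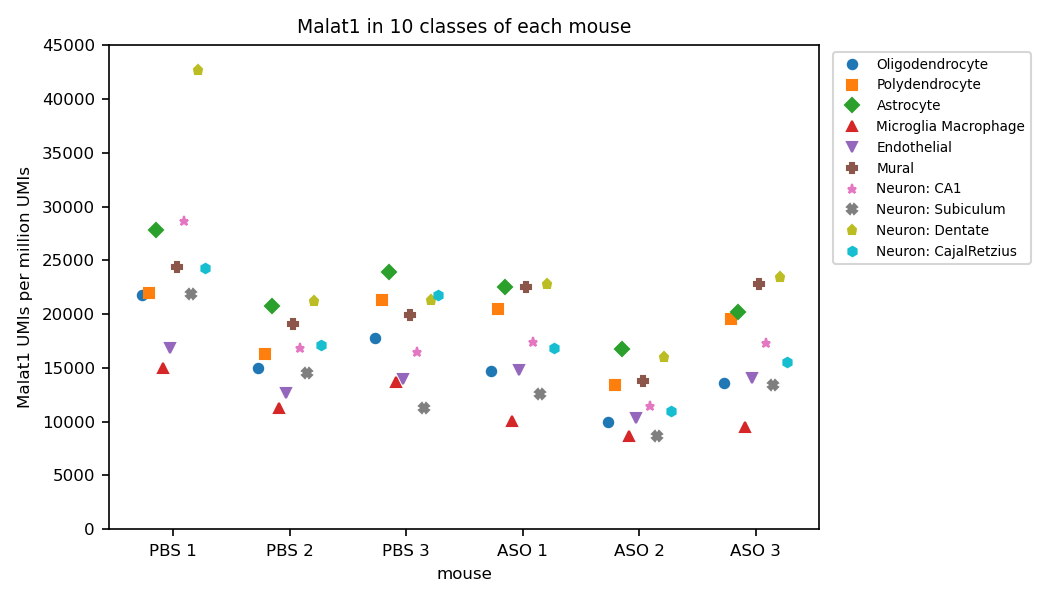
Malat1 CPM (vertical axis) in 10 classes (symbols) of each of the 6 mice (horizontal axis). In every class PBS mouse 1 is the highest and ASO mouse 2 the lowest, and the other 4 mice lie between.

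Malat1 was lower on average in ASO mice in all 9 tested classes, and no class passed the test. The log2 fold changes ran from -0.09 (SE 0.23) in mural cells to -0.49 (SE 0.28) in subiculum neurons. The subiculum value was -0.14 without PBS mouse 1, -0.30 without ASO mouse 2 and -0.31 with no filter on low counts. In all cells other than oligodendrocytes the PBS mice had 24010, 16164 and 18282 CPM and the ASO mice 16943, 12594 and 16368 CPM. ASO mouse 1 and ASO mouse 3 fell inside the PBS range, and the log2 fold change was -0.34 (SE 0.23, adjusted p = 0.999948 by edgeR), or -0.18 without PBS mouse 1 and -0.21 without ASO mouse 2. The mural value turned positive without PBS mouse 1 (0.035) or without ASO mouse 2 (0.12), and the polydendrocyte value turned positive without ASO mouse 2 (0.024).
In microglia the groups came apart. PBS mice had 15009, 11266 and 13648 CPM and ASO mice 10064, 8686 and 9539 CPM, so all ASO mice were below all PBS mice, as held for 10.8% of genes there in either direction. The log2 fold change was -0.48 (SE 0.17, adjusted p = 0.761 by edgeR), and within the 3 sets of mice it was -0.39, -0.52 and -0.50. Cajal-Retzius neurons had 24341, 17155 and 21799 CPM under PBS and 16813, 10963 and 15578 CPM under ASO. The groups were apart there in CPM but overlapped once scaled as in the test, and the log2 fold change was -0.45 (SE 0.41, adjusted p = 0.966 by edgeR), or -0.26 without ASO mouse 2. In oligodendrocytes, where the contrast was not tested, PBS mice had 21775, 14949 and 17805 CPM and ASO mice 14741, 9977 and 13550 CPM. Every ASO mouse was below every PBS mouse in oligodendrocytes, as groups lay apart for 11.5% of genes there in either direction. The fitted log2 fold change was -0.55 (SE 0.19).
In dentate neurons the PBS mice had 42743, 21178 and 21314 CPM and the ASO mice 22773, 15991 and 23503 CPM. PBS mouse 1 stood far above the other 5 mice, whose values overlapped between the groups. The log2 fold change was -0.47 (SE 0.28, adjusted p = 0.9998 by edgeR), and without PBS mouse 1 it was -0.029. Only with a term for the 3 sets of mice did it pass, at -0.41 (SE 0.10, adjusted p = 0.0433 by edgeR); the differences within the sets were -0.41, -0.95 and 0.14, so they did not all share a sign. Over its 15 alternatives the adjusted p ran from 0.0433 to 0.99996.

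Meg3 and Snhg11 were RNAs of neurons and followed each other closely. Meg3 had a median of 8822 CPM in subiculum neurons and 8470 CPM in CA1 neurons, with overlapping ranges over mice. Cajal-Retzius neurons followed at 4206 CPM and dentate neurons at 1794 CPM, whose ranges overlapped with each other. Dentate granule cells were thus the tested neuronal class with the lowest Meg3, and their lowest mouse, at 1693 CPM, stood above the highest polydendrocyte value of 438 CPM.
Polydendrocytes had a median of 368 CPM of Meg3 and the remaining classes from 62.2 CPM in astrocytes to 127 CPM in mural cells. Interneurons, pooled because some mice had under 20 of them, had the highest level of all classes, 15901 CPM (exact Poisson 95% interval 15231 to 16593) from 2118 UMIs in 105 cells. A Meg3 UMI was seen in 98.1% of interneurons, 94.0% of subiculum neurons and 75.2% of dentate neurons. The share was 8.34% in oligodendrocytes and 6.82% in astrocytes.
Snhg11 had a median of 5510 CPM in subiculum neurons, 5287 CPM in Cajal-Retzius neurons and 3729 CPM in CA1 neurons, with ranges that overlapped from each to the next. Dentate neurons, at 814 CPM, and polydendrocytes, at 244 CPM, each lay clear of their neighbours. Pooled interneurons had 7425 CPM (exact Poisson 95% interval 6970 to 7903). Across the 10 classes Snhg11 was the gene most like Meg3 (r = 0.985), ahead of Rian (r = 0.978), a neighbour of Meg3 in the same imprinted locus, and Syt1 (r = 0.975), the synaptic calcium sensor. The genes most like Snhg11 after Meg3 were Ptprn2 (r = 0.971), a protein of secretory vesicles, and Cacna1b (r = 0.967), a neuronal calcium channel subunit.

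Pooled over mice, the ratio of the 2 RNAs was lowest in a pair of classes. Meg3 UMIs per Snhg11 UMI were 2.33 in CA1, 2.29 in dentate, 1.65 in subiculum neurons, 2.14 in interneurons, and between 1.32 and 3.09 in polydendrocytes, astrocytes, microglia, oligodendrocytes, mural and endothelial cells. In Cajal-Retzius neurons the ratio was 0.822, from 1307 Meg3 and 1590 Snhg11 UMIs. Choroid plexus came next at 1.0, from 6 UMIs of each RNA. By mouse, ASO mouse 1 had 355 Meg3 and 343 Snhg11 UMIs in Cajal-Retzius neurons. ASO mouse 2 had 26 and 27 in microglia, so these classes were not apart when single mice were read.
Fibroblast-Like cells had the lowest ratio, 0.140, from 16 Meg3 and 114 Snhg11 UMIs in 108 cells. Their pooled Snhg11 level was 904 CPM (exact Poisson 95% interval 746 to 1086), near that of dentate neurons, and 50.9% of them had a Snhg11 UMI, or 31.4% at 500 UMIs per cell. The level per mouse was 605, 511 and 964 CPM under PBS and 1059, 857 and 1233 CPM under ASO, from 9 to 27 cells each. Meg3 stood at 127 CPM there, and the neuron markers Snap25, Syt1, Rbfox3, Stmn2 and Nrgn summed to 190 CPM, against 5251 CPM in dentate neurons. The fibroblast markers Dcn, Lum, Col1a1, Igf2 and Slc6a13 were each highest in this class.

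**Figure D5:**
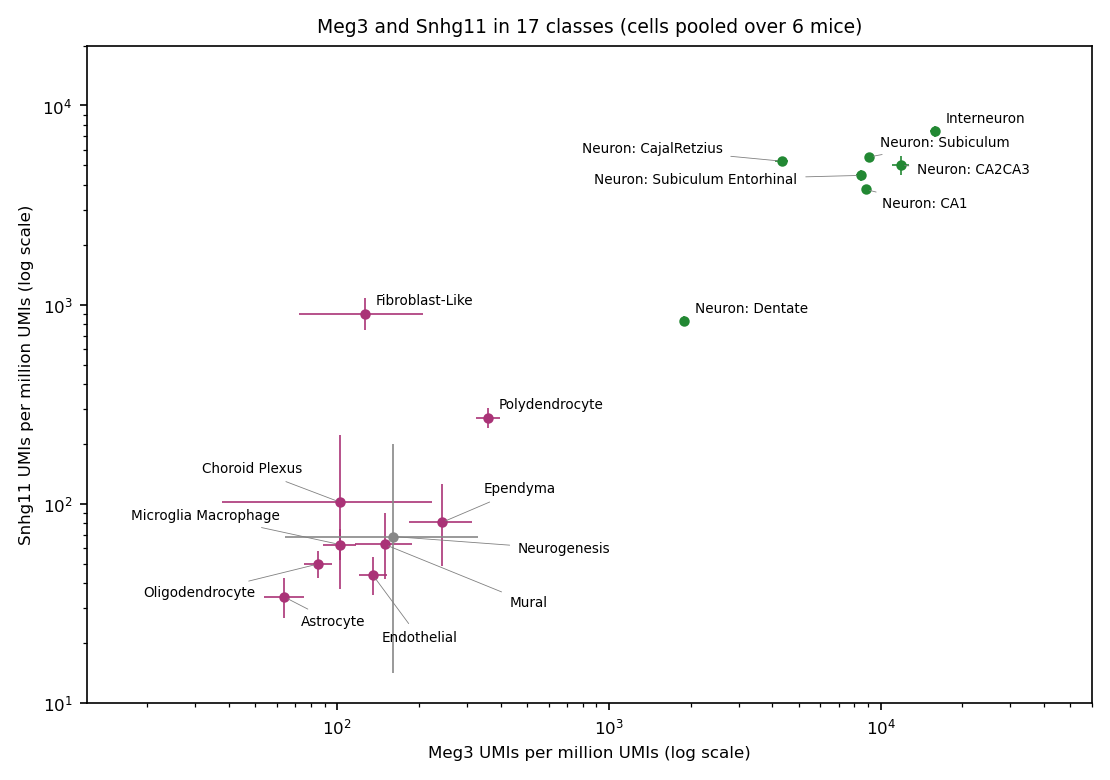
Pooled CPM of Meg3 (horizontal axis) and Snhg11 (vertical axis, both log scales) in 17 classes, with exact Poisson 95% intervals that cover counting error only; neuronal classes are green, other classes purple and Neurogenesis grey. Fibroblast-Like cells have 904 CPM of Snhg11 at 127 CPM of Meg3, above the other non-neuronal classes.

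Neither RNA passed the test between ASO and PBS mice. In all cells other than oligodendrocytes Meg3 had 1407, 1511 and 1066 CPM under PBS and 1568, 1670 and 1483 CPM under ASO, and the log2 fold change was 0.25 (SE 0.16, adjusted p = 0.999948 by edgeR), or 0.11 without PBS mouse 3. Snhg11 had 753, 865 and 649 CPM under PBS and 816, 942 and 879 CPM under ASO, with 0.22 (SE 0.15, adjusted p = 0.999948 by edgeR), or 0.12 without PBS mouse 3 and 0.34 without PBS mouse 2. The groups overlapped for both RNAs, and these sums depend on how many neurons each mouse gave.
Within neurons the Snhg11 values differed from class to class. Dentate neurons had 1084, 968 and 831 CPM under PBS and 693, 797 and 557 CPM under ASO. Every ASO mouse was below every PBS mouse, as held for 8.49% of the genes tested there, and the log2 fold change was -0.51 (SE 0.19, adjusted p = 0.9998 by edgeR). In subiculum, CA1 and Cajal-Retzius neurons the values were -0.08 (SE 0.27), 0.12 (SE 0.26) and -0.20 (SE 0.30). For Meg3 the 4 neuronal classes gave -0.23 (SE 0.19) in dentate, -0.24 (SE 0.27) in subiculum, 0.16 (SE 0.29) in CA1 and -0.03 (SE 0.31) in Cajal-Retzius neurons. Of these 7 values other than that of Snhg11 in dentate neurons, each moved by over 1.5 times under some alternative; the signs of Snhg11 in subiculum and of Meg3 in Cajal-Retzius neurons turned, to at most 0.089 and 0.23.
Outside neurons the counts were small. Snhg11 in endothelial cells was 29.2, 42.1 and 20.6 CPM under PBS and 52.2, 67.5 and 49.9 CPM under ASO, from 88 UMIs in all, with groups that did not overlap, as held for 9.55% of genes. The log2 fold change was 0.84 (SE 0.35, adjusted p = 0.998 by edgeR). The 5 neuron markers in these cells summed to 361.3 to 388 CPM under PBS and 395 to 415 CPM under ASO, and their part in the difference was not tested. Of a pooled 392 CPM for the 5, Stmn2 gave 174 CPM, against 65.0 CPM of Stmn2 in dentate neurons. The sum is therefore not a plain measure of neuronal RNA in endothelial cells. In microglia Snhg11 gave 0.75 (SE 0.32, adjusted p = 0.821 by edgeR), or 0.43 without ASO mouse 2, with 43.8, 46.1 and 51.1 CPM under PBS and 78.0, 131 and 43.1 CPM under ASO. Meg3 in endothelial cells gave 0.68 (SE 0.25, adjusted p = 0.998 by edgeR), and this value rested on ASO mouse 2, which had 267 CPM while the other 5 mice had 91.2 to 126 CPM. Without that mouse it was 0.21.

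Miat was the rarest of the RNAs, with 694 UMIs in all, and a neuronal one. CA1 neurons had a median of 273 CPM, subiculum neurons 222 CPM and dentate neurons 221 CPM, and these overlapped in range. Polydendrocytes, at 59.1 CPM, lay below the lowest dentate mouse of 171 CPM and overlapped with Cajal-Retzius neurons at 44.7 CPM. In astrocytes, endothelial cells and oligodendrocytes the medians were 6.02, 2.79 and 1.04 CPM. The genes most like it were Rasgrf1 (r = 0.991), a neuronal exchange factor for Ras, Elp2 (r = 0.979), a subunit of Elongator, and Hook1 (r = 0.978), a microtubule adaptor.
Between groups, all cells other than oligodendrocytes had 63.0, 52.4 and 54.2 CPM of Miat under PBS and 73.0, 69.4 and 58.4 CPM under ASO. They overlapped, and the log2 fold change was 0.25 (SE 0.16, adjusted p = 0.999948 by edgeR). In polydendrocytes PBS mice had 53.3, 14.5 and 52.1 CPM and ASO mice 86.5, 65.0 and 83.0 CPM, from 62 UMIs in all. The groups did not overlap, as held for 9.08% of genes in that class, and the log2 fold change was 0.82 (SE 0.43, adjusted p = 0.995 by edgeR), or 0.51 without PBS mouse 2. In CA1, dentate and subiculum neurons it was 0.14 (SE 0.36), 0.30 (SE 0.22) and -0.11 (SE 0.38). Over the alternatives these ran from -0.036 to 0.37, from 0.17 to 0.52 and from -0.40 to 0.24, so that the sign held in dentate neurons alone.

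Genes for the protein partners of these RNAs were read from lists of their known members. Of 28 genes for paraspeckle proteins, 25 were tested in oligodendrocytes. None passed with edgeR, DESeq2 or limma voom, 18 were higher and 7 lower in ASO mice, and their median log2 fold change was 0.05 against 0.01 over all genes tested. The smallest p belonged to Cpsf7, a subunit of the cleavage factor that sets Neat1 isoform length, at 54.3 ± 16.0 normalised CPM in PBS and 80.6 ± 5.81 in ASO mice (SD, n = 3), with a log2 fold change of 0.56 (SE 0.25, adjusted p = 0.667 by edgeR). Next was Srsf10, a splicing factor, at 0.47 (SE 0.29, adjusted p = 0.862 by edgeR). In all other cells 28 were tested, none passed with any of the 3 tools, and the median was 0.05 against 0.00 over all genes. Rbm14, which is needed for paraspeckle assembly, gave 0.34 (SE 0.26) and Rbmx, an RNA-binding protein, -0.21 (SE 0.16).
Of 26 genes for nuclear speckle proteins and splicing factors, all 26 were tested in both sets of cells and none passed. In oligodendrocytes 9 were higher and 17 lower, with a median of -0.04. The SR proteins Srsf6, at 0.36 (SE 0.20, adjusted p = 0.819 by edgeR), and Srsf3, at 0.31 (SE 0.17, adjusted p = 0.839 by edgeR), had the smallest p. In all other cells 8 were higher and 18 lower, with a median of -0.03, and Tra2b and U2af2, which act in exon and 3′ splice site recognition, gave -0.24 (SE 0.14) and 0.24 (SE 0.16).
Of 6 RNAs of the Meg3 locus none was counted deeply enough in oligodendrocytes. In all other cells Rian gave 0.20 (SE 0.18), Mirg, a microRNA host, 0.23 (SE 0.30) and Rtl1, a retrotransposon-derived imprinted gene, 0.14 (SE 0.34), with none past the test. All 3 were on the same side as Meg3 at 0.25, and all 4 were counted in the same cells.
Of 43 other long noncoding RNAs 23 were in the table under the names used, and 13 were tested in oligodendrocytes with 7 higher, 6 lower and none past the test. Sox2ot, which overlaps Sox2, had 675 ± 22.4 normalised CPM in PBS and 809 ± 91.9 in ASO mice (SD, n = 3), a log2 fold change of 0.26 (SE 0.15, adjusted p = 0.847 by edgeR), and Tug1 gave 0.37 (SE 0.28, adjusted p = 0.890 by edgeR). In all other cells 18 were tested, 9 higher and 9 lower with none past the test; Dleu2 gave -0.22 (SE 0.17) and Mir22hg 0.16 (SE 0.19). Over the 4 lists, 1 of 64 genes tested in oligodendrocytes and 0 of 75 in the other cells had an unadjusted p under 0.05, against 472 of 7141 and 524 of 13547 over all genes tested.
The genes around Neat1 did not pass the test either. Within 200 kb of its locus 18 genes besides Malat1 were in the table, and of the 7 counted deeply enough in oligodendrocytes none passed with edgeR. Frmd8, the nearest gene to Neat1 at 4224 bases, gave -0.25 (SE 0.22, adjusted p = 0.911 by edgeR). Rela, a subunit of NF-kappaB, gave 0.25 (SE 0.27, adjusted p = 0.949 by edgeR).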

How the data were processed

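Drop-Seq counts were analysed from the hippocampus of 3 PBS and 3 ASO mice. The authors deposited whole UMI counts per gene and cell in 1 table whose column names carry the mouse and the class; per the submitters' processing notes bcl2fastq, STAR 2.5.0c and the builds mm10 and GRCm38 were used, and how reads were assigned to genes or isoforms is not given in the sources used here. Of 12823 cells, 220 called as doublets in each mouse with Scrublet (scanpy 1.11.5) were left out, and 8 barcodes occurred in more than 1 mouse.

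Counts were summed per mouse and class where every mouse had at least 20 cells, and over all cells other than oligodendrocytes. They were tested with edgeR 4.0.16 (filterByExpr, TMM scaling, quasi-likelihood, two-sided, Benjamini-Hochberg over all genes of a class, threshold 0.05), with DESeq2 1.42.0 and limma 3.58.1 voom as alternatives. The fits were run on simulated data with 5153 genes of microglia. There 79 of 100 genes changed by 1 on the log2 scale and 100 of 100 changed by 2 were called, beside 5 unchanged genes. In the deposited counts 2 of 5467 microglia genes passed. The share of changes of these sizes that would be called in the deposited counts was not tested. Shares of genes whose groups do not overlap are on TMM-normalised CPM. Replicate numbers follow accession order and pair no mice. The labels give 6 mice, and p-values measure the spread between these mice. The members, gene lists and tests were chosen with earlier results of these data known. List genes named are those past the threshold, or else the 2 with the smallest p per list, all 3 tested RNAs of the Meg3 locus, and for each member the 3 genes most like it; the neighbours of Neat1 named were chosen after their values were seen. One gene of the oligodendrocyte marker list is not reported here, and 5 markers were used.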

Additional observations from a re-analysis of the deposited data

Results flagged for a closer look

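Snhg11 was the only member whose mice lay apart between the groups in opposite directions in a pair of classes. In endothelial cells every ASO mouse was above every PBS mouse, with a log2 fold change of 0.84 from 88 UMIs in all. In dentate neurons every ASO mouse was below every PBS mouse, with -0.51. Groups lay apart in either direction for 9.55% of genes in endothelial cells and 8.49% in dentate neurons. The difference between the classes was not tested, and neither value passed its own test.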

How the results depend on the processing

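Of 583 recomputed values, the log2 fold change of Neat1 in oligodendrocytes stayed between 0.67 and 0.88 in 16 alternatives, and those of the 5 RNAs in all other cells kept their sign and stayed short of the threshold in 15 alternatives each. The count of member tests passed in the 9 other classes was 0 in every alternative except the term for 3 sets of mice, where 1 passed, Malat1 in dentate neurons. Neat1 in mural cells turned to -0.085 with cells thinned to 500 UMIs. Leaving out 1 mouse moved Neat1 from -0.0050 to 0.30 in endothelial cells, from -0.11 to 0.084 in astrocytes and from -0.015 to 0.12 in mural cells. It moved Malat1 from -0.21 to 0.12 in mural cells and from -0.29 to 0.024 in polydendrocytes. In neurons it moved Meg3 from -0.32 to 0.23 in Cajal-Retzius neurons, and Miat from -0.036 to 0.37 in CA1 and from -0.40 to 0.24 in subiculum neurons. With no filter Snhg11 and Miat in subiculum neurons turned to 0.089 and 0.061, and with thinned cells Meg3 in Cajal-Retzius neurons to 0.031. The cause of these turns was not tested. The genes passing in oligodendrocytes numbered 16, against 41 without the filter, 39 with the term for sets, 8 with DESeq2, 7 with thinned cells, 2 in cells without other markers, and 6 to 30 with 1 mouse left out. In all other cells 15 genes passed without the filter and 5 with the term for sets, against 0. No paired analysis was possible because the mouse numbers follow accession order and tie no mice together; the 3 sets come from the mt-Rnr2 to mt-Cytb ratio in the data. In counts simulated for microglia, 79 of 100 genes changed by 1 on the log2 scale were called. The changed genes had levels above the median, and smaller changes and rarer RNAs such as Miat were not simulated. The share of changes by 1 that would be called in the deposited counts was not tested.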
